A study of Homo sapiens with 8 samples.

Results

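The genes described here encode the core histones H2A, H2B, H3 and H4 and the linker histone H1. They were taken as every protein-coding gene of the GENCODE 44 annotation whose symbol is H1 with a number, or H2AC, H2BC, H3C or H4C with a number. This gave 73 of 20033 protein-coding genes: 10 for H1, 17 for H2A, 18 for H2B, 13 for H3 and 15 for H4. Of these, 55 lie on chromosome 6, 13 on chromosome 1 and 5 on other chromosomes. The study varied formaldehyde (FA) fixation from 0.1% to 5% in HepG2 cells, followed by cryopreservation or flash freezing, in 8 bulk ATAC-seq libraries. HepG2 is an established human liver tumour cell line, and in ATAC-seq the transposase Tn5 inserts adapters where chromatin is open. The peak list analysed here comes from 1 library, of cells fixed with 0.1% FA and then cryopreserved, so no comparison between conditions and no replicate check could be made. It holds 60628 peaks on the hg38 genome, and the other 7 libraries are not analysed here.

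Replication-dependent histone genes are switched on in S phase, when new DNA has to be packed into nucleosomes, and their short messages end in a stem-loop in place of a poly(A) tail. SLBP binds that stem-loop, and NPAT, a target of cyclin E and CDK2, gathers at the gene clusters in nuclear bodies that also hold the processing factors. Each histone type has its own promoter elements, and many H2A and H2B genes stand back to back and share 1 stretch of promoter DNA. The name of the group does not hold for every gene that the symbol rule takes in. H1-10 is a replication-independent linker histone, H1-7 and H1-8 are expressed in spermatids and oocytes, and H1-6, H2AC1 and H2BC1 encode testis variants. In the same list, all 10 hepatocyte markers examined had a peak at the transcription start site (TSS). Of the blood cell markers 0 of 6 had one, and of the neuron markers 0 of 5, against 59.2% of all protein-coding genes. These short lists were chosen with earlier results of these data known, so they give no test of cell identity.

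The promoters differed in sequence in a way that follows histone type, and a few are printed here because the peaks described further on sit on them. Each sequence is hg38 reference, 5′ to 3′. Capitals mark matches on either strand to TATAAA (the TATA box), CCAAT (bound by NF-Y), ATGCAAAT (the octamer bound by OCT1), AAACACA (the H1 box), GGTCCG (the core of the H4 subtype element bound by HINFP), GGGCGG (the GC box) and the E2F sites TTTGGCGC and TTTCCCGC. GGTCCG overlaps the reversed CCAAT box ATTGG where the letters read ATTGGTCCG. The first 3 sequences are the whole DNA between both TSS of a divergent H2A and H2B pair, given on the plus strand: chr6:27893186-27893424 and chr6:26216689-26216920, which lay under peaks, and chr6:25726563-25726776 between the testis genes, which did not.
H2AC17 to H2BC17: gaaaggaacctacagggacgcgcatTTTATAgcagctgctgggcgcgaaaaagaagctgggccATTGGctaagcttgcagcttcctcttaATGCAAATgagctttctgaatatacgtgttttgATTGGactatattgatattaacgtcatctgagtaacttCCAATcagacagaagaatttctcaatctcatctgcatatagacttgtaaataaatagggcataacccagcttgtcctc
H2BC8 to H2AC8: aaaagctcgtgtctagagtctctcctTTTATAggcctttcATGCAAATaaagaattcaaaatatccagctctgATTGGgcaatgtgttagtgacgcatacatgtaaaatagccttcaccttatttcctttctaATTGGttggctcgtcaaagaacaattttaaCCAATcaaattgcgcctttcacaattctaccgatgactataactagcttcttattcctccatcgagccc
H2AC1 to H2BC1: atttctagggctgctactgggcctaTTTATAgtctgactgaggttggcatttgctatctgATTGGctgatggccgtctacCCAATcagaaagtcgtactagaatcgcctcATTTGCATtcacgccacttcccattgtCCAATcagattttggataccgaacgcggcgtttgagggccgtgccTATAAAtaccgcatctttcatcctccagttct

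The single promoters are the 150 bases before the TSS, read along the gene. Those of H4C4 (chr6:26189113-26189262, minus strand) and H4C12 (chr6:27831561-27831710, minus) carried the peaks with the highest fold among the H4 genes, and that of H4C2 (chr6:26027284-26027433, minus) the lowest. H4C14 (chr1:149832507-149832656, plus) had no peak, and its 150 bases differ at 0 positions from those of H4C15. H3C2 (chr6:26032100-26032249, minus) had the highest fold of the H3 genes. H1-2 (chr6:26056471-26056620, minus) had the highest fold of the H1 genes, and H1-3 (chr6:26234988-26235137, minus) had no peak with the same order of H1 box and CCAAT box.
H4C4: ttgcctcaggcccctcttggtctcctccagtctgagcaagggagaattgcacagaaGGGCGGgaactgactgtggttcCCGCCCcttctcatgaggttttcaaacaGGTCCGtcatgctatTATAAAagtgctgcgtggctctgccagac
H4C12: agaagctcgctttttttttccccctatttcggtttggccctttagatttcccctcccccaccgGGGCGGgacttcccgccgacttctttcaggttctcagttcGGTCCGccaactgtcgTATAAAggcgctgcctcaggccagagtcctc
H4C2: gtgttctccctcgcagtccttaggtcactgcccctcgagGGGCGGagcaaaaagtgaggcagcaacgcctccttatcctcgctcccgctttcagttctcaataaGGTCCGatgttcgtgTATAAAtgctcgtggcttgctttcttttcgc
H4C14: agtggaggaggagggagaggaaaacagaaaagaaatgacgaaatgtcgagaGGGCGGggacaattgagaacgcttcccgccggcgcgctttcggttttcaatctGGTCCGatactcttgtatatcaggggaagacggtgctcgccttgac
H3C2: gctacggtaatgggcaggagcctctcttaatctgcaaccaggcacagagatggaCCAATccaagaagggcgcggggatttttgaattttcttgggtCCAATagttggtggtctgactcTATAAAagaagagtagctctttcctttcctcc
H1-2: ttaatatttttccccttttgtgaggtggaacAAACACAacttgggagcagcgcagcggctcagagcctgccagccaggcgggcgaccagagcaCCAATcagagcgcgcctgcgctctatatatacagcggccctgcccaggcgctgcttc
H1-3: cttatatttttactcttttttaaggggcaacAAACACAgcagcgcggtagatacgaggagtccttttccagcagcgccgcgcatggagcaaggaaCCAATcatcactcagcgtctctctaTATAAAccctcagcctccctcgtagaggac

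Histone genes had a peak at the TSS about as often as other genes. A TSS peak was any listed peak that overlaps the 500 bp to either side of the canonical TSS. Of the 73 genes, 45 had one (61.6%, exact 95% binomial interval 49.5 to 72.8%), against 59.2% of all protein-coding genes. H2B led with 14 of 18 (77.8%, 52.4 to 93.6%), followed by H2A with 12 of 17 (70.6%, 44 to 89.7%) and H4 with 9 of 15 (60%, 32.3 to 83.7%). H3 had 6 of 13 (46.2%, 19.2 to 74.9%) and H1 had 4 of 10 (40.0%, 12.2 to 73.8%). The intervals of all 5 types overlap each other and include the share of all genes. These intervals cover counting error only. Neighbouring genes also share peaks, so the 45 genes stand for 36 distinct peaks.

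**Figure D1:**
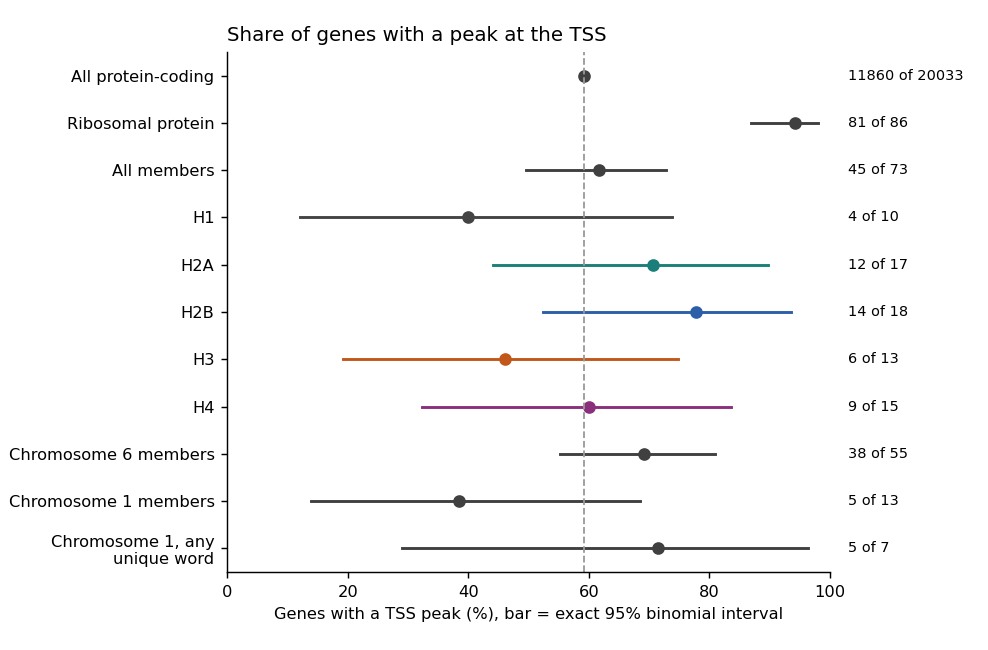
TSS peaks as a percentage of genes, by gene set, histone type and chromosome, with exact 95% binomial intervals as bars and the share of all protein-coding genes (59.2%) as the dashed line. Every histone interval crosses the dashed line, while the ribosomal protein genes, 81 of 86 with a peak, lie above it. The line is not filtered by unique words, so it is no like value for chromosome 1 genes with any unique word.

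On chromosome 6 the genes with a peak were 38 of 55 (69.1%, 55.2 to 80.9%), against 62% of the protein-coding genes of that chromosome. On chromosome 1 they were 5 of 13 (38.5%, 13.9 to 68.4%), against 57.8% there. The genes without a peak on chromosome 1 include 3 pairs of near-identical genes. H2AC18 and H2AC19, H3C14 and H3C15, and H4C14 and H4C15 had no 50-base word in their TSS windows that occurs once in the genome, and none of the 6 had a peak. The study's methods kept only pairs aligned with a mapping quality above a low minimum, so a read of this length from these windows has no single place to be counted. The part this plays in the missing peaks was not tested. Among chromosome 1 histone genes with any unique word, 5 of 7 had a peak (71.4%, 29.0 to 96.3%), and among all histone genes with one, 45 of 67 (67.2%, 54.6 to 78.2%). Words were not counted for other protein-coding genes, so neither share has a like value over all genes. Partly repeated windows did carry peaks: only 27.1% of the words were unique around H3C13 and 40.1% around H2BC18. At 44 of the 45 genes with a peak, the 50 bases at the summit occur once in the genome. H2BC18 was the exception. H4C11 and H4C12, whose 150-base promoters differ at 2 positions, each had a peak with 56.7% unique words.

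The chromosome 6 genes fall into 3 stretches, and each held genes with and without a peak. The first, of 34 genes from H2AC1 to H4C8, had 22 with a peak (64.7%). Within it, the 7 genes from H3C6 to H3C8 had a peak only at H3C7, whose fold was above those of H4C2 and H2BC12 alone. The second stretch, of 5 genes around H2BC11, had 4 with a peak, and the third, of 16 genes from H2BC13 to H2BC17, had 12 (75%). All peaks inside these last 2 stretches, 3 and 8 in number, lay at a histone TSS. In the first, which also holds other genes, 20 of 53 peaks did. Peak density was 94.6 per Mb in the first stretch (560 kb), 196 in the second (15.3 kb) and 92.5 in the third (86.5 kb). Over the chromosomes as a whole it was 19.6. Each stretch was cut at its outermost histone TSS, so its density is not a like comparison with whole chromosomes. Of the 7 other protein-coding genes inside these stretches, 3 had a TSS peak (42.9%), 1 of them because its TSS is that of H2AC7.

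Fold enrichment was lower at histone genes than at most other promoters. Fold is the ratio that the peak caller gives between fragments at the summit and those expected from the surroundings, with 1 added to each, so it understates the plain ratio where the background is low. The 45 genes had a median fold of 10.8 (interquartile range 9.18 to 13.3), against 18.1 (13 to 22.9) at the TSS peaks of all protein-coding genes. Among them only H4C4, H2AC15 and H2BC15 were above that median, the last 2 through 1 shared peak. The 5 types had close medians: 10.3 for H1, 10.7 for H2A, 10.9 for H2B, 10.7 for H3 and 10.9 for H4. With 1 library, none of these differences has a test.

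**Figure D2:**
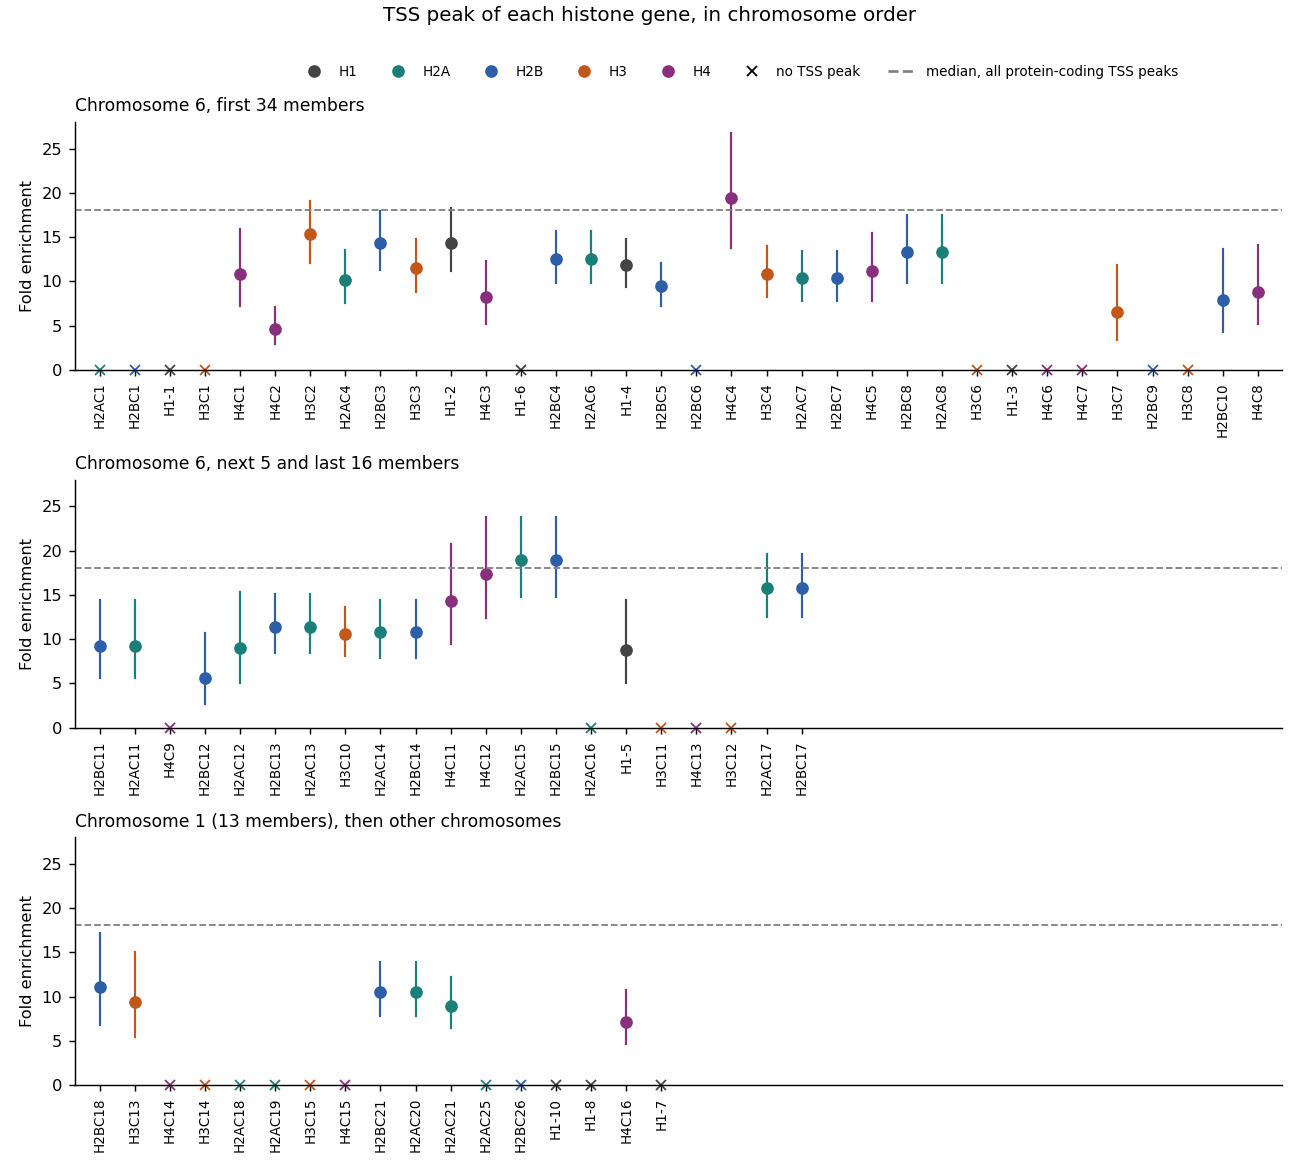
Fold enrichment (linear axis) of the TSS peak of 72 of the 73 histone genes in chromosome order, coloured by type, with the 95% interval from the Poisson error of the summit fragments; crosses at the bottom mark genes with no TSS peak, and the dashed line is the median of all protein-coding TSS peaks. Most points lie under the line, neighbours that share a peak have the same value, and the crosses on chromosome 1 include the 6 genes of the repeated pairs.

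Fragments and background at the summit were also compared. The whole number of fragments at a summit and the local background behind it were solved from the fold and p-value of each peak. Histone TSS peaks had a median of 46 summit fragments (interquartile range 21 to 58) against 44 (27 to 66) for all genes, and a local background of 3.0 fragments against 1.4. On chromosome 6 alone, the 38 histone genes with a peak had a median of 48 fragments over a background of 3.0. The TSS peaks of all protein-coding genes of that chromosome had 54 over 1.84. The fragment median was thus above that of all genes but below that of chromosome 6, while the background was above both. Background was at least 2.5 fragments at 28 of the 45 genes (62.2%), against 19.2% of all protein-coding genes with a TSS peak. All genes with such a background had a median of 81 summit fragments and a fold of 18.8, whereas the 28 histone genes had 56 fragments and a fold of 11.4. The histone genes with a lower background had 17 fragments and a fold of 9.18. Within 5000 bases to either side of the summit, histone peaks had a median of 1 other peak and 661 bases under peaks, against 0 other peaks and 380 bases for all genes. How far this crowding sets the background was not tested.

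H4 genes had the lowest medians of both fragments and background among the 5 types, again with no test. Their median was 25 summit fragments over a background of 1.39, whereas H2A and H2B had 48 fragments each over 3.42 and 3.15, and H3 had 57 over 4.08. The H4 range, 15 to 37 fragments, lay under the H2A and H2B medians. Peaks were widest at H2A (median 436 bp) and H2B (391.5 bp), and narrower at H3 (295.5 bp), H4 (243 bp) and H1 (188 bp). Most H2A and H2B peaks are shared by both genes of a divergent pair and count for each type. The medians of these types, in width, fragments, background and fold, are therefore not separate results. Over the 45 genes the median width was 355 bp against 281 bp for all genes, or 298.5 bp when each of the 36 peaks was counted once.

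**Figure D3:**
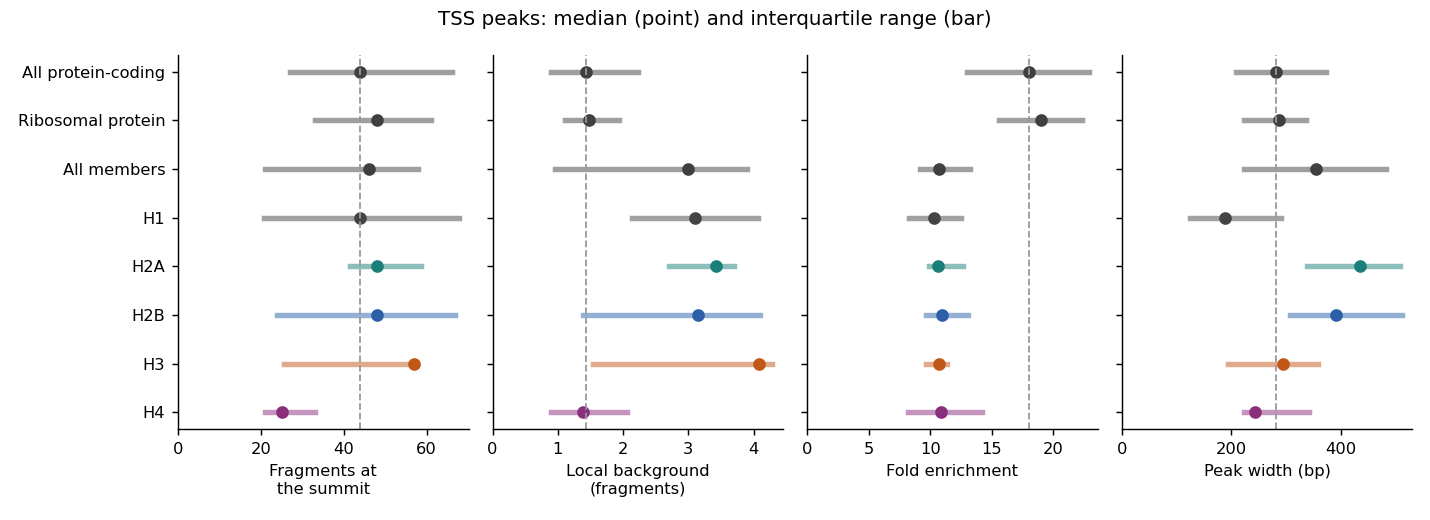
Median (point) and interquartile range (bar) of the summit fragments, local background, fold and width of TSS peaks, for all protein-coding genes, ribosomal protein genes, all histone genes with a peak and each histone type; dashed lines mark the median of all genes. The median of histone peaks is close to that of all genes in fragments (46 and 44), with lower quartiles, and higher in background (3.0 and 1.4), and H4 is low in both fragments and background.

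Linker histone genes are described first. H1-2 had a peak at chr6:26056154-26056563 with a fold of 14.4 (95% interval 11.1 to 18.3), a −log10 q of 53.9, a width of 410 bp and 65 summit fragments. At H1-4 the peak chr6:26156255-26156505 had a fold of 11.9 (9.37 to 14.8), a −log10 q of 54.8, 251 bp and 76 fragments. The count of fragments at H1-4 was equal to the highest count at any core histone gene. H1-5 had a fold of 8.80. H1-1, H1-3, H1-6, H1-7, H1-8 and H1-10 had no TSS peak. Their nearest peaks were 3646 bp (fold 10.9), 10785 bp (18.1), 3111 bp (11.3), 21840 bp (15.5), 15721 bp (13.5) and 1135 bp (10.2) away, in that order. For H1-10 that nearest peak lies inside the gene, chr3:129314881-129315151.

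The H2A and H2B genes, whose products form the dimers at the faces of the nucleosome, mostly stand at shared promoters. The annotation holds 12 divergent H2A and H2B pairs with TSS 194 to 251 bp apart, and 1 pair of H3C7 and H2BC9 with 979 bp between them. Of the 13 pairs, 10 had 1 peak in both windows, and in all 10 its summit lay between the TSS. Among the 26 genes in these pairs 21 had a TSS peak (80.8%), against 24 of the other 47 (51.1%) and 59.2% of all protein-coding genes. The shares are not like for like. A shared peak counts for both partners of a pair, and the other 47 include the 6 genes with no unique word. Of the 10 H2A and H2B genes outside the pairs, 6 had a TSS peak.

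H2AC15 and H2BC15 shared the strongest of these peaks, chr6:27838218-27838606, with a fold of 18.9 (14.8 to 23.8), a −log10 q of 67.0, 389 bp and 69 fragments. H2AC17 and H2BC17 came next with chr6:27893026-27893588, a fold of 15.7 (12.4 to 19.6), a −log10 q of 65.4, 563 bp and 76 fragments. Both intervals include values of the other pair, so their order is not resolved. H2BC8 and H2AC8, whose promoter is printed above, shared a peak of 746 bp with a fold of 13.3, and H2BC4 and H2AC6 one with a fold of 12.5. H2BC13 and H2AC13 (11.4), H2AC14 and H2BC14 (10.8), H2BC21 and H2AC20 (10.6), H2AC7 and H2BC7 (10.3) and H2BC11 and H2AC11 (9.18) followed. These 5 folds differ by less than their intervals.

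The pair of H2BC12 and H2AC12 was the weakest and the least simple. Between both TSS lay chr6:27146928-27147035, the lowest H2B peak, with a fold of 5.56 (2.65 to 10.7), a −log10 q of 5.15, 108 bp and 7 fragments. H2AC12 also had chr6:27147484-27147633 in its window, with a fold of 9.04. The summit of that peak was 470 bp after the TSS, just past the annotated end of the gene. With the highest peak of each window taken, the lowest H2A value was at H2AC21, chr1:149887990-149888162. It had a fold of 9.01 (6.50 to 12.2), a −log10 q of 25.4, 173 bp and 40 fragments. The peak nearest to the H2AC12 TSS, with its fold of 5.56, was lower. Outside the pairs, H2BC3 had a fold of 14.3, H2BC18 11.1, H2AC4 10.2, H2BC5 9.44 and H2BC10 7.94. H2BC5 had the widest histone peak, 1019 bp, most of it upstream of the TSS.

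Among H2A and H2B genes, 9 had no TSS peak. The testis pair H2AC1 and H2BC1 stood 22578 and 22363 bp from the nearest peak (fold 6.09), and the DNA between them, printed above, holds TATA, CCAAT and octamer letters, as does that of H2BC8 and H2AC8. H2AC25 and H2BC26, a pair on the far side of chromosome 1, were 1487 and 1257 bp from a peak with a fold of 4.23, which lies at another annotated start of H2BC26, 1050 bp from the canonical one. H2AC18 and H2AC19 belong to the repeated pairs and were 28980 and 34615 bp from the nearest peaks, which had folds of 9.35 and 5.88. H2BC6 was 5239 bp from the peak of H4C4, H2BC9 969 bp from that of H3C7, and H2AC16 2202 bp from that of H1-5. These last 3 distances are to peaks at other histone genes.

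H3 genes, which encode the histone that carries the best-studied methylation and acetylation marks, had 6 peaks. H3C2 was highest with chr6:26031924-26032299, a fold of 15.3 (12.1 to 19.1), a −log10 q of 64.4, 376 bp and 76 fragments. H3C3 followed with chr6:26045200-26045505, a fold of 11.5 (8.78 to 14.8), a −log10 q of 42.1, 306 bp and 58 fragments. H3C4 (10.9), H3C10 (10.5) and H3C13 (9.35) lay within the interval of H3C3. H3C7 was lowest with chr6:26250520-26250645, a fold of 6.52 (3.34 to 11.8), a −log10 q of 6.94, 126 bp and 9 fragments. The remaining 7 had none: H3C1, H3C6, H3C8, H3C11, H3C12, H3C14 and H3C15. Their nearest peaks were 982 bp (fold 10.9), 933 bp (18.1), 1408 bp (7.94), 4707 bp (8.80), 2200 bp (15.7), 27438 bp (9.35) and 33068 bp (5.88) away, in that order. For H3C6 the nearest peak, chr6:26223718-26224202, overlaps another annotated start of the same gene, 936 bp from the canonical one, so its absence depends on which start is used. H3C12 likewise has another start 2280 bp away, which falls at the peak shared by H2AC17 and H2BC17.

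H4 genes, which encode the partner of H3 in the nucleosome core, had both the highest and the lowest fold. H4C4 had chr6:26189000-26189249 with a fold of 19.4 (13.8 to 26.7), a −log10 q of 41.7, 250 bp and 36 fragments. H4C12 had chr6:27831461-27831690 with a fold of 17.3 (12.3 to 23.7), a −log10 q of 39.0, 230 bp and 37 fragments. Even H4C4 stood only at percentile 57.5 of all protein-coding TSS peaks. H4C2 had chr6:26027122-26027364 with a fold of 4.65 (2.89 to 7.13), a −log10 q of 6.81, 243 bp and 19 fragments over a background of 3.30, the highest among H4 genes. The intervals of H4C4 and H4C2 do not overlap. Between them lay H4C11 (14.2), H4C5 (11.1), H4C1 (10.9), H4C8 (8.77), H4C3 (8.20) and H4C16 (7.18). H4C6, H4C7, H4C9, H4C13, H4C14 and H4C15 had no TSS peak. Their nearest peaks were 10127 bp (fold 6.52), 3524 bp (6.52), 6053 bp (9.18), 5895 bp (8.80), 18887 bp (9.35) and 24517 bp (5.88) away, in that order.

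Summits lay just upstream of the TSS. The median summit was at −78 bp (quartiles −122 and −22), against −70 bp for all genes. Upstream of the TSS lay 41 of 45 summits (91.1%), near the 85.6% of all genes. Within the 200 bp before the TSS lay 39 summits (86.7%), against 72.6% for all genes. H2A and H2B summits sat farther out (medians −109.5 and −111.5 bp) than those of H3 (−29), H4 (−22) and H1 (−9.5). The divergent pairs have a median of 240 bp between their TSS. A summit shared by both genes of a pair is counted from each TSS, and both distances add up to the gap between them. The H2A and H2B medians are therefore not separate results. Their closeness to the middle of such a promoter follows largely from this counting. At H4C4 and H4C12 the summit was 6 bp before the TSS, and at H4C2 it was 76 bp after it.

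**Figure D4:**
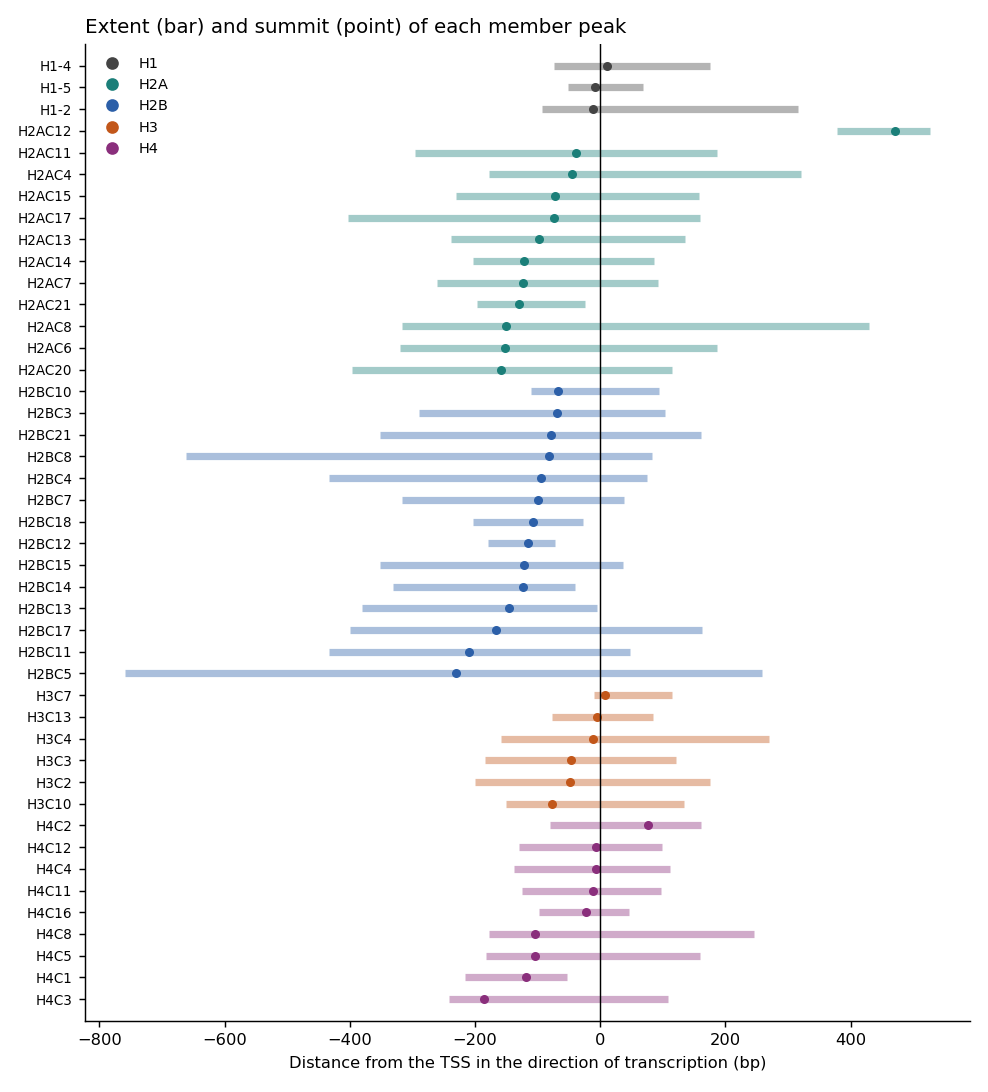
Extent (bar) and summit (point) of the TSS peak of 44 of the 45 histone genes relative to the TSS, in bp along the direction of transcription, grouped and coloured by type. H2A and H2B bars reach upstream across the shared promoter, H3 and H4 summits lie closer to the TSS, and H2AC12 is the peak whose summit is 470 bp downstream.

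Promoter elements differed between the histone types. They were counted over the 250 bases before to 50 after the TSS, on both strands. The TATA box letters were in 64.4% of histone promoters against 9.71% of all protein-coding promoters, and CCAAT in 83.6% against 36.1%. CCAAT was in every H2A, H2B and H3 promoter but in 5 of 15 H4 promoters (33.3%). The octamer was in 14 of 18 H2B and 12 of 17 H2A promoters and in 0 of the H1, H3 and H4 promoters, against 1.62% of all genes. Divergent partners share their octamer, since both windows cover the same DNA, and other matches such as TATA can count for both in the same way. With the window cut to 150 bases before the TSS the H2A octamer share was 29.4%, as H2A octamers had a median position of −194.5, against −49 for H2B. The H2B share with TATA went from 66.7% to 44.4% with that cut.

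GGTCCG was in 13 of 15 H4 promoters (86.7%), always on the coding strand and with its first base from −47 to −44, against 14.7% of all genes. H4C1 and H4C7, the exceptions, were also the 2 H4 genes with an E2F site. The H1 box was in 8 of 10 H1 promoters against 4.19% of all genes. GC boxes were rarer in histone promoters (26%) than in all promoters (61.3%), and in H2A and H2B they were in 1 gene each. These are H2AC20 and H2BC21, a divergent pair whose windows cover the same match. Between histone genes with and without a peak, CCAAT was about as frequent (82.2% and 85.7%), while TATA (71.1% and 53.6%) and the octamer (46.7% and 17.9%) were in more of those with a peak. With the window cut to 150 bases before the TSS, these shares were 60% and 50% for TATA, and 33.3% and 14.3% for the octamer. Among the histone types the octamer was found in H2A and H2B genes alone, whose shares of genes with a peak count shared peaks for both partners. With each peak given only to its nearest TSS, the shares were 47.1% for H2A, 50% for H2B and 60% for H4, so that the order of the types turned. A match shows only that these letters are present.

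**Figure D5:**
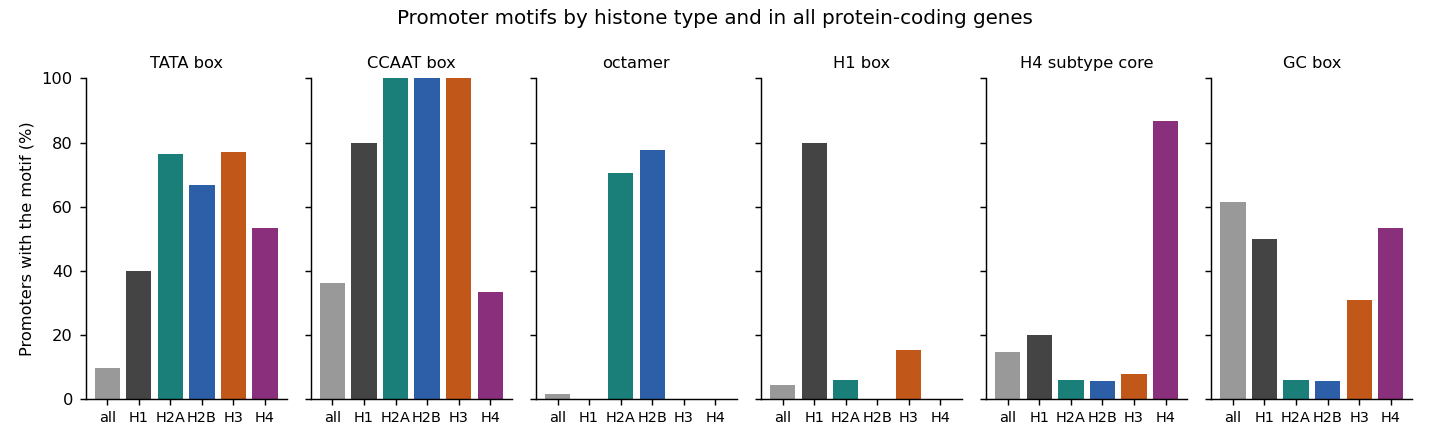
Percent of promoters (250 bases before to 50 after the TSS) with each motif on either strand, for all protein-coding genes (grey) and each histone type. CCAAT is in all H2A, H2B and H3 promoters, the octamer in H2A and H2B alone among the types, the H1 box mainly in H1 and GGTCCG mainly in H4.

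Histone promoters were lower in GC than most promoters. The windows of 500 bp to either side of the TSS had a median GC content of 50.9%, against 61.3% for all protein-coding genes. In all genes the share with a TSS peak rose with GC, from 26.8% at 45 to 50% GC to 70.4% at 60 to 65%. Histone genes did not follow that order: 18 of 29 had a peak at 45 to 50% GC (62.1%), 20 of 26 at 50 to 55% (76.9%, all genes 46.9%) and 0 of 5 at 60 to 65%. Of those 5, 4 belong to the repeated chromosome 1 pairs. Of all protein-coding genes with GC inside the interquartile range of the histone genes, 44.6% had a peak.

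Other gene sets give a scale for these values, though none was matched to the histone genes. Cytosolic ribosomal protein genes had a TSS peak at 81 of 86 (94.2%) with a median fold of 19.0. Of 12 replication-independent histone genes, which H1-10 also belongs to, 10 had one with a median fold of 15.6. CENPA, the centromeric H3 variant (28.5), H2AX, the variant phosphorylated at DNA breaks (21.8), and H2AZ2 (20.6) were highest, and H1-10 and H3-5 had none. All 22 genes of histone gene regulation and message processing had a TSS peak, with a median fold of 21.4. HINFP, the H4 promoter factor, had 32.8, ERI1, an exonuclease that trims the stem-loop end, 27.0, and NFYB, a subunit of the CCAAT factor, 26.7. The lowest of them was at 10.9, close to the histone gene median. Among 15 histone pseudogenes 5 had a TSS peak (33.3%), and for H2AC5P and H2AC10P it was the peak of H2BC3 and of H2BC10.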

How the data were processed

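Bulk ATAC-seq of HepG2 cells was analysed from 1 deposited peak list (0.1% FA, cryopreserved). Per the study's methods the authors trimmed reads with cutadapt, aligned them to GRCh38 with Bowtie2 in snakePipes, removed duplicates, kept uniquely mapped pairs and called peaks with MACS2 (version not given in the sources used here) at standard settings. The names in the deposited peak list call its input filtered and short. Each deposited row gives an integer score, the fold ratio of the summit over its local background (1 fragment added to each), −log10 p and −log10 q values as the authors' caller wrote them, and the summit offset. No replicates were pooled.

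Peaks were joined to canonical GENCODE 44 TSS (500 bp to either side; the peak with the highest fold was kept). Summit fragments and background were solved from fold and −log10 p with a relative tolerance of 5e-05, which gave whole numbers at 100% of 10663 TSS peaks, 12 of them with more than 1 solution. The depth of the library is unknown, so only these fragments bound the precision, and intervals cover counting error only. Uniqueness was the share of 50-base words of a window found once in hg38. Word search and fragment solution were tested on simulated data, and the joins of 400 genes against a direct comparison. Python 3.11.15, pandas 2.3.3, scipy 1.17.1 and pysam 0.24.0 were used. Stretches were split at gaps of more than 500000 bp. The genes and lists were chosen with earlier results of these data known. Full values are given for the 2 highest and the lowest fold of each type (1 such value is not reported here), the nearest peak for every gene without one, and for the lists the 3 highest folds. Alternatives were the TSS window, the q threshold, the TSS set, the peak assignment, the word length and the motif window. No test between groups was possible with 1 library.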

Additional observations from a re-analysis of the deposited data

How the results depend on the processing

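The main counts, shares and medians were recomputed under the alternatives, 97 values in all, of which 86 were labelled the same and 11 moved. A share or median was called moved outside its 95% interval. A count was called moved only outside a fixed factor of its main value, which is not an error interval. The number of histone genes with a TSS peak ranged from 31 to 48, and their median fold from 10.7 to 11.5. It was 31 of 73 with a −log10 q of at least 20, and 36 of 73 where each peak was given only to its nearest TSS. Both counts were labelled the same by that factor. The share on chromosome 6 fell to 50.9% with a −log10 q of at least 20 and to 54.5% where each peak was given only to its nearest TSS, which also took H2B to 50.0% and H2A to 47.1%, under the 60% of H4. That assignment allows a shared peak to count for 1 gene only. The share of all protein-coding genes was 61.5% with a window of 1000 bp, 57.3% with 250 bp, 58.3% with the summit in the window, 49.0% with a −log10 q of at least 20, 64.6% with the start of any transcript and 54.2% with the nearest TSS only. With words of 36 bases the median unique share in histone windows was 95.3%, against 99.3% with 50 bases, and 6 genes had no unique word at every word length and window tried. No paired analysis was possible because 1 library was analysed. Absence of a peak means that none was listed, since depth and unlisted signal are unknown.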

Other observations

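Outside the canonical starts of the histone genes, the first chromosome 6 stretch held 28 peaks at no canonical gene start, with 5 more at the canonical starts of other genes, pseudogenes and non-coding genes included. One of these peaks, with a fold of 18.1, overlaps another annotated start of H3C6. The peaks of this stretch that lay at no canonical histone start had a median fold of 9.30, and those at canonical histone starts 10.9. The pseudogenes H1-12P and H3C9P on chromosome 6 and H1-9P on chromosome 17 had TSS peaks outside the TSS windows of the histone genes. Their folds were 7.51, 8.79 and 7.67. Whether these peaks also lie at starts of other genes was not examined.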
